A study of Rattus norvegicus with 24 samples.

Results

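The 300 most abundant transcripts of rat liver on days 2, 4 and 7 after burn injury or sham treatment are described here. They were chosen from the sham arrays alone. Signals were taken to log2(signal + 16), the 18 arrays of these days were quantile-normalized, array control rows (named AFFX) were left out, and the 300 rows with the highest mean over the 9 sham arrays were kept. They make up 1.89% of the 15866 remaining rows, and the whole table has 15923. RNA of whole liver of Rattus norvegicus was hybridised to oligonucleotide arrays, with 3 burn and 3 sham arrays on each day. The titles were read as day, arm (b for burn, s for sham) and replicate number. The description of burn day 2 replicate 1 speaks of a sham control, against its title, and the calls, the day 2 counts and the largest day 2 effects are given with and without it. The sources used here do not give strain, age, the burn procedure or what the sham animals underwent. No label ties the 3 arrays of a group to different rats, and the p-values below therefore speak only of the spread among these samples, which could be technical.

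The liver devotes much of its messenger RNA to a small set of very abundant transcripts. In hepatocytes these include the messages for secreted plasma proteins such as albumin, transthyretin and the apolipoproteins, along with detoxifying and metabolic enzymes. After burns and other injuries the liver enters the acute-phase response, in which messages for some plasma proteins rise and those for others, albumin among them, fall. Which of these genes the rows below stand for could not be read from the table, so this is background and not an account of single rows.

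The names in the table do not go with the values. Of 21 rows listed under 17 hepatocyte marker genes, 0 were among the 300, and their median percentile by sham level was 50.1, with a range from 3.26 to 97.6. The 2 rows listed under albumin (Alb) stood at percentiles 6.69 and 71.6. Rows are therefore called by their rank by mean sham level, from rank 1, the brightest, to rank 300, and no gene name or sequence is given. For the same reason the liver label could not be checked against its markers. Day 1 is not analysed here. Over the 15923 rows its arrays correlated with those of the later days at only 0.028 to 0.043, against 0.94 to 0.96 within day 1 and 0.94 to 0.97 within the later days, so its rows could not be matched to theirs.

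Levels of the 300 ran from 15.20 at rank 1 to 12.70 at rank 300 (mean of 9 sham arrays, log2). The cut at rank 300 did not fall at a step. Ranks 299 and 300 stood at 12.706 and 12.705, and the next 2 rows outside at 12.701 and 12.695. Before normalization, rank 1 had an intensity of 30063 to 52594 on sham arrays (median 36707) and of 31461 to 41468 on burn arrays (median 36762). Rank 2 had 29392 to 50483 on sham arrays (median 35926) and 31311 to 42970 on burn arrays (median 35953). Burn and sham arrays overlapped in both rows. Quantile normalization hands the brightest rows of every array the same few values, so the normalized level of rank 1 was only 15.13 or 15.22 on each of the 18 arrays. Burn minus sham was -0.01 ± 0.05 (SE) for rank 1, 0.02 ± 0.05 for rank 2, -0.05 ± 0.05 for rank 3, 0.09 ± 0.05 for rank 4 and -0.02 ± 0.06 for rank 5, on the mean of the 3 days. None of these 5 passed the test (limma adjusted p from 0.613 to 0.972). In rank 4 all 9 burn arrays lay above the sham mean of their day, on levels of 15.03 to 15.13 in burn (median 15.10) and 14.86 to 15.03 in sham (median 15.03).

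**Figure D1:**
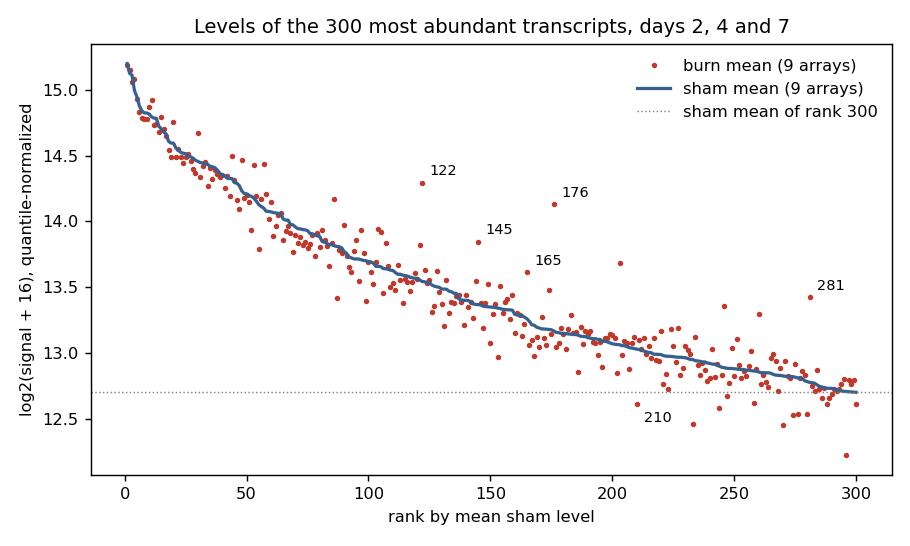
Mean level, log2(signal + 16) after quantile normalization, of the 300 transcripts over the 9 sham arrays (line) and the 9 burn arrays (points) of days 2, 4 and 7, against rank by sham level. Most burn means follow the sham line from 15.20 down to 12.70, while the called ranks 122, 145, 165, 176 and 281 lie above it and rank 210 lies below. Members that were not called lie off it too. Among them are rank 203 (13.682 in burn, 13.065 in sham) and rank 296 (12.228 in burn, 12.710 in sham).

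Of the summed deposited intensity of all rows but the controls, their share was 33.2% ± 1.03 (SD, n = 18 arrays), with a lowest array of 30.5% and a highest of 35.0%. The 10 brightest held 2.76% ± 0.24 and the 50 brightest 10.7% ± 0.70 (SD, n = 18). Between 82 and 98 rows made up the first 50 percent of the signal of the 300. Ranks 201 to 300 held 6.33% to 6.95% of the whole.

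By arm, the share was 33.3% ± 0.57 on burn arrays and 33.2% ± 1.38 on sham arrays (SD, n = 9 each). On day 2 it was 33.1%, 34.1% and 33.3% on burn arrays and 32.9%, 32.6% and 30.5% on sham arrays. All 3 burn arrays were above all 3 sham arrays, and sham day 2 replicate 3 was the lowest of the 18. On day 4 the burn arrays stood at 33.0%, 32.1% and 33.3% and the sham arrays at 35.0%, 32.9% and 32.2%, with overlap. On day 7 they stood at 33.2%, 33.3% and 34.0% against 34.6%, 33.6% and 34.2%, again with overlap. Burn minus sham was thus 1.50 percentage points on day 2, -0.58 on day 4 and -0.62 on day 7, where the spread within groups was 0.90 (pooled SD). Without sham day 2 replicate 3 the day 2 difference was 0.76 points, without burn day 2 replicate 1 it was 1.69, and without sham day 4 replicate 1 the day 4 difference turned to 0.24. The day 2 difference also turned with the scale: as a share of quantile-normalized signal it was -0.18 points, with 0.047 on day 4 and -0.21 on day 7 and a pooled SD of 0.11. On that scale burn arrays of day 7 held 33.0%, 33.1% and 33.0% and sham arrays 33.3%, 33.3% and 33.2%, without overlap. The rows were chosen as the brightest on these same sham arrays, and quantile normalization gives every array the same set of values. The choice therefore favours a higher share on sham arrays on that scale. It bears on the deposited shares too. With 300 rows chosen by the burn arrays, which favours burn, the deposited differences were 1.85, -0.34 and -0.27 points on days 2, 4 and 7. Because of the choice, the lower normalized shares of burn arrays on days 2 and 7 cannot be read as an effect of burn. The same holds for their lower deposited shares on days 4 and 7. All shares given here sum over the chosen rows and were given no test. In whole liver, fewer cells of a type and less RNA per cell cannot be told apart.

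**Figure D2:**
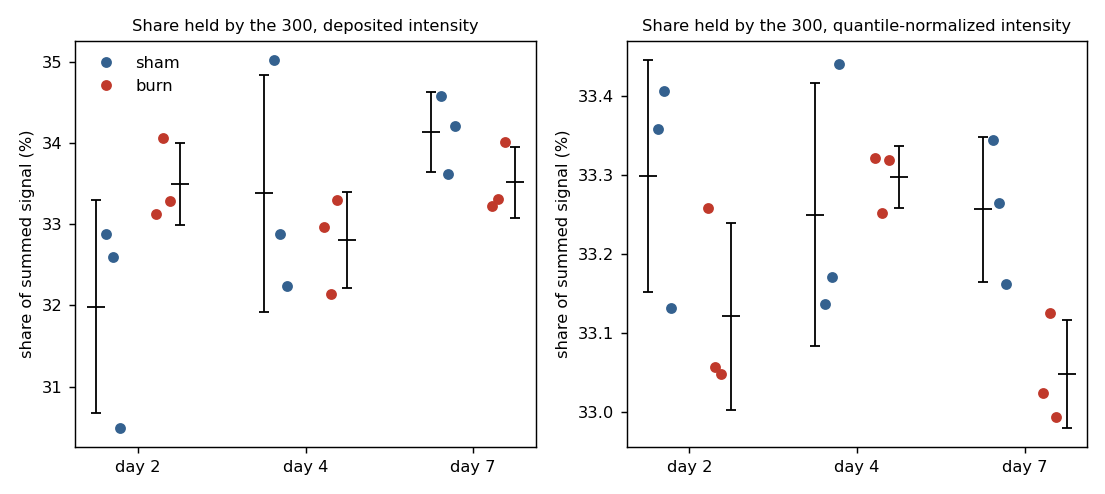
Share of the summed signal (%) held by the 300 transcripts on each array, by day, on deposited (left) and quantile-normalized (right) intensity; points are arrays, bars are mean and SD of 3, and the axes do not start at 0. Burn arrays of day 2 average 33.5% against 32.0% for sham on deposited values, but 33.1% against 33.3% after quantile normalization. The transcripts were chosen on the sham arrays, which favours a higher sham share in both panels.

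Behind these sums some members gained and others lost. Quantile normalization gives every array the same set of values, which nearly fixes the share of the brightest rows, so gains and losses come close to balance on that scale by construction. On it, members that gained signal after burn added 1.56 points of the array total on day 2, 1.63 on day 4 and 1.63 on day 7, while those that lost signal gave up -1.73, -1.58 and -1.84 points. The biggest single gain was that of rank 122 on day 2 (0.090 points), of rank 48 on day 4 (0.059) and of rank 176 on day 7 (0.097). The biggest single losses were those of rank 55 on day 2 (-0.044), rank 31 on day 4 (-0.051) and rank 108 on day 7 (-0.043). Ranks 48, 31 and 108 were picked after their values were seen.

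The ranking itself moved little. Each burn array had 267 to 279 of the 300 among its own 300 brightest rows, and each sham array 273 to 284. The sham arrays chose the set, so the somewhat higher sham counts are no finding. In all, 200 of the 300 were among the 300 brightest on all 18 arrays, and 5 were so on fewer than 9. Choosing by the 9 burn arrays instead kept 284. The 16 rows that dropped out had sham ranks of 210 and lower, and the furthest fall in rank was that of rank 296, to 442. The 16 rows that came in had sham ranks of 301 to 414. Among these, the rows at sham ranks 375 and 414 rose by 0.38 ± 0.07 and 0.44 ± 0.07 (SE, mean of the days; limma adjusted p = 0.0253 and 0.0206), and were noted after their values were seen.

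Burn effects on the abundant transcripts were small. On day 2, 267 of the 300 lay within 1.25-fold of sham, on day 4 260 and on day 7 268, which is 89%, 86.7% and 89.3%, against 73.5%, 74.6% and 72.8% of all rows. The median size of the effect was 0.12, 0.11 and 0.12 log2 units on the 3 days, where over all rows it was 0.18, 0.17 and 0.18. Replicates also lay closer together. The residual SD had a median of 0.12 over the 300 and 0.27 over all rows, and 278 of the 300 were under the latter. Accordingly the median SE of a day's effect was 0.12 for the 300 and 0.22 for all rows. Changes beyond 1.5-fold were seen in 8 members on day 2 (all higher in burn), 7 on day 4 (3 higher) and 9 on day 7 (7 higher), that is in 2.67%, 2.33% and 3% of members against 8.82%, 7.88% and 9.45% of all rows. On the mean of the days there were 4 (1.33%), against 1.85% of rows.

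More members leaned lower than higher after burn on days 2 and 7. The median burn effects of days 2, 4 and 7 were -0.030, -0.0041 and -0.049, beside -0.0083, -0.0021 and -0.012 over all rows, and 118, 146 and 116 of the 300 were higher in burn (39.3%, 48.7% and 38.7%). Over all rows 48.7%, 49.6% and 48.1% were higher. This split rests on the scaling. With median scaling 72.0%, 57.0% and 14.3% of members were higher on days 2, 4 and 7, and with values as deposited 66.3%, 47.7% and 30.0%, so the direction on day 2 turned and that on day 7 stayed. The choice by sham level is also not independent of the sham readings. With the 300 rows chosen by the sham arrays of the other 2 days, 40.0%, 51.7% and 39.3% were higher, and by all 18 arrays 41.0%, 50.7% and 41.0%.

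**Figure D3:**
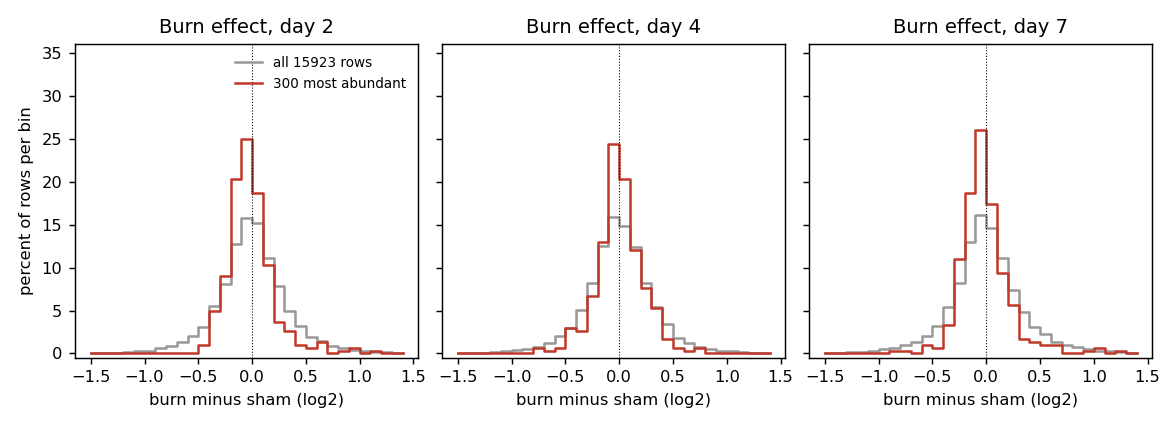
Distribution of the burn effect (burn minus sham, log2) on days 2, 4 and 7 for the 300 transcripts and for all 15923 rows, as percent of rows per bin 0.1 log2 units wide. The 300 are narrower about 0 on each day, with a small tail of rises beyond 0.5 on days 2 and 7.

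Whether single members differed between burn and sham was tested by limma over all 15923 rows, with Benjamini-Hochberg adjustment and a threshold of 0.05. On day 2 limma called 0 members and 0% of all rows, with 32 members (10.7%) at an unadjusted p under 0.05, against 8.84% of all rows. Of these, 16 were higher and 16 lower, against 4.41% and 4.42% of rows. On day 4 it called 0 members and 0% of rows, with 47 members (15.7%) at an unadjusted p under 0.05, against 9.33%. Here 29 were higher and 18 lower, where rows gave 4.95% and 4.38%. On day 7 it called 3 members (1%), where 0.0502% of all rows were called. Of these, 2 were higher and 1 lower, against 0.0251% of rows in either direction. At an unadjusted p under 0.05 there were 41 members (13.7%), against 9.87% of rows, 23 of them higher and 18 lower, against 5.38% and 4.48%. On the mean of the 3 days it called 5 members (1.67%), all higher in burn, where 0.157% of all rows were called, 0.1% higher and 0.0565% lower. At an unadjusted p under 0.05 there were 64 members (21.3%), against 10.2% of rows, 29 of them higher and 35 lower, against 5.11% and 5.14%. Without burn day 2 replicate 1 the counts were again 0, 0, 3 and 5, of the same members, with the 5 rises between 0.37 and 0.97 (limma adjusted p from 0.00961 to 0.0351). Over all rows that fit called 13 on day 7 and 28 on the mean, where the main fit called 8 and 25. Sham arrays chose the members, so these counts are descriptions. With rows chosen by the sham arrays of the other 2 days, the counts of days 2, 4 and 7 were 0, 0 and 3, the same 3.

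The number of calls moved with the variance model. The default pulls the small variances of bright rows toward those of all rows. With a prior variance that follows intensity, fitted robustly, limma called 7 members on day 2 (6 higher), 0 on day 4, 9 on day 7 (8 higher) and 20 on the mean (14 higher), the 3 and the 5 among them. Calls over all rows rose too, to 0.201%, 0.0377%, 0.377% and 0.559%, beside 2.33%, 0%, 3% and 6.67% of members. On day 2, leaving out sham day 2 replicate 3 gave 4 calls (1.33% of members, against 0.126% of all rows). They were ranks 122, 145, 176 and 281, all higher.

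By separation alone, burn and sham arrays of day 2 did not overlap in 67 members (22.3%, against 13.2% of all rows), 28 of them higher and 39 lower, against 6.34% and 6.85% of rows. On day 4 this held for 84 members (28%, against 14.9%), 47 higher and 37 lower, against 7.63% and 7.23%. On day 7 it held for 79 (26.3%, against 15.8%), 37 higher and 42 lower, against 7.86% and 7.94%. The share of members is again a description, since replicates of bright rows lay closer together and the sham arrays chose them. With overlap allowed, 38 members (12.7%) were higher on all 3 days and 68 (22.7%) lower, against 12.1% and 14.8% of rows. Without overlap on all 3 days, ranks 20, 104, 122, 165 and 176 were higher (5 members, 1.67%, against 0.157% of rows) and ranks 106 and 167 lower (2 members, 0.667%, against 0.107%). Rank 20 stood at 0.16 ± 0.05 above sham and rank 104 at 0.29 ± 0.07 (SE, mean of the days), and neither passed the test (limma adjusted p = 0.321 and 0.119). Ranks 106 and 167 stood at -0.19 ± 0.05 and -0.12 ± 0.06 (limma adjusted p = 0.211 and 0.507).

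The 5 members called on the mean of the days were ranks 122, 145, 165, 176 and 281. All were higher in burn on each day, and in each the effect of day 4 was the smallest of the 3. Together they held 0.68% ± 0.12 of the deposited signal on burn arrays and 0.42% ± 0.04 on sham arrays (SD, n = 9 each). They were picked by this difference, so it is a description.

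Rank 176 had the largest rise of the 300 on the mean of the days. Its burn arrays read 14.27, 14.36 and 14.38 on day 2, 13.75, 14.01 and 13.65 on day 4 and 14.43, 13.92 and 14.42 on day 7. Its sham arrays read 13.15, 13.03 and 13.92, then 12.97, 12.94 and 13.36, then 12.90, 12.83 and 13.43. Burn and sham did not overlap on any day, and sham replicate 3 was the highest sham array on each. Burn exceeded sham by 0.97, 0.71 and 1.20 on days 2, 4 and 7, each ± 0.23 (SE), and by 0.96 ± 0.13 on their mean, or 1.95-fold (limma adjusted p = 0.0111). None of the single days passed (limma adjusted p = 0.196, 0.359 and 0.075).

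Rank 122 followed the same course. Its burn arrays read 14.59, 14.50 and 14.49 on day 2, 14.00, 13.91 and 13.95 on day 4, and 14.48, 14.14 and 14.59 on day 7. Its sham arrays read 13.47, 13.55 and 13.99, then 13.51, 13.51 and 13.70, then 13.38, 13.23 and 13.57. There was no overlap on any day, and all 9 burn arrays exceeded the sham mean of their day. It rose by 1.02 ± 0.15 on day 7, or 2.02-fold (limma adjusted p = 0.0263), and by 0.75 ± 0.09 on the mean, or 1.68-fold (limma adjusted p = 0.00463). Its differences of 0.86 ± 0.15 on day 2 and 0.37 ± 0.15 on day 4 did not pass (limma adjusted p = 0.10 and 0.462).

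Rank 281, near the lower end of the set, rose as much on day 7. Burn arrays read 13.58, 13.57 and 13.66 on day 2, 13.08, 13.28 and 12.88 on day 4, and 13.69, 13.50 and 13.59 on day 7. Sham arrays read 12.87, 12.65 and 13.19, then 12.73, 12.87 and 12.99, then 12.43, 12.62 and 12.65. The arms were apart on days 2 and 7 and overlapped on day 4. The rise was 1.03 ± 0.15 on day 7, or 2.04-fold (limma adjusted p = 0.0224), and 0.65 ± 0.08 on the mean, or 1.57-fold (limma adjusted p = 0.00802). On days 2 and 4 it stood at 0.70 ± 0.15 and 0.21 ± 0.15 (limma adjusted p = 0.136 and 0.737).

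The remaining pair of rises was smaller. Rank 145 read 14.02, 14.08 and 13.94, then 13.42, 13.69 and 13.58, then 14.03, 13.82 and 14.03 in burn, and 13.13, 13.35 and 13.50, then 13.35, 13.54 and 13.42, then 13.44, 13.31 and 13.28 in sham. It was apart on days 2 and 7, overlapped on day 4, and rose by 0.48 ± 0.07 on the mean, or 1.39-fold (limma adjusted p = 0.0156). Rank 165 read 13.65, 13.66 and 13.84, then 13.43, 13.48 and 13.44, then 13.67, 13.68 and 13.72 in burn, and 13.20, 13.15 and 13.35, then 13.32, 13.18 and 13.23, then 13.37, 13.21 and 13.35 in sham. It was apart on every day and rose by 0.36 ± 0.06 on the mean, or 1.28-fold (limma adjusted p = 0.0223). Leaving out any 1 of 5 arrays ended the call of rank 165 (burn day 2 replicate 3, sham day 2 replicates 1 and 2, burn day 4 replicate 2 or sham day 4 replicate 2), with a largest limma adjusted p of 0.450 over all settings.

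Rank 210 was the only called fall among the 300, on day 7. Its burn arrays read 12.32, 12.04 and 12.30 on day 7, after 12.68, 12.72 and 12.74 on day 2 and 13.14, 12.88 and 12.73 on day 4. Its sham arrays read 13.19, 13.00 and 13.07 on day 7, 12.87, 13.21 and 12.92 on day 2 and 13.13, 13.06 and 12.84 on day 4. The arms were apart on days 2 and 7. The fall was -0.87 ± 0.14 on day 7 (limma adjusted p = 0.0359), beside -0.29 ± 0.14 on day 2 and -0.09 ± 0.14 on day 4 (limma adjusted p = 0.577 and 0.914). The call ended with a pseudocount of 1 and with day 7 fitted alone. It also ended with the replicate number as a block within days or over days (limma adjusted p = 0.0932 and 0.0592). Leaving out any 1 of 9 arrays ended it too. These were burn day 2 replicate 3, burn day 4 replicate 2 and sham day 4 replicates 1 and 2. On day 7 they were burn replicates 1, 2 and 3 and sham replicates 1 and 3. On the mean of the days rank 210 did not pass, at -0.42 ± 0.08 (limma adjusted p = 0.0549).

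**Figure D4:**
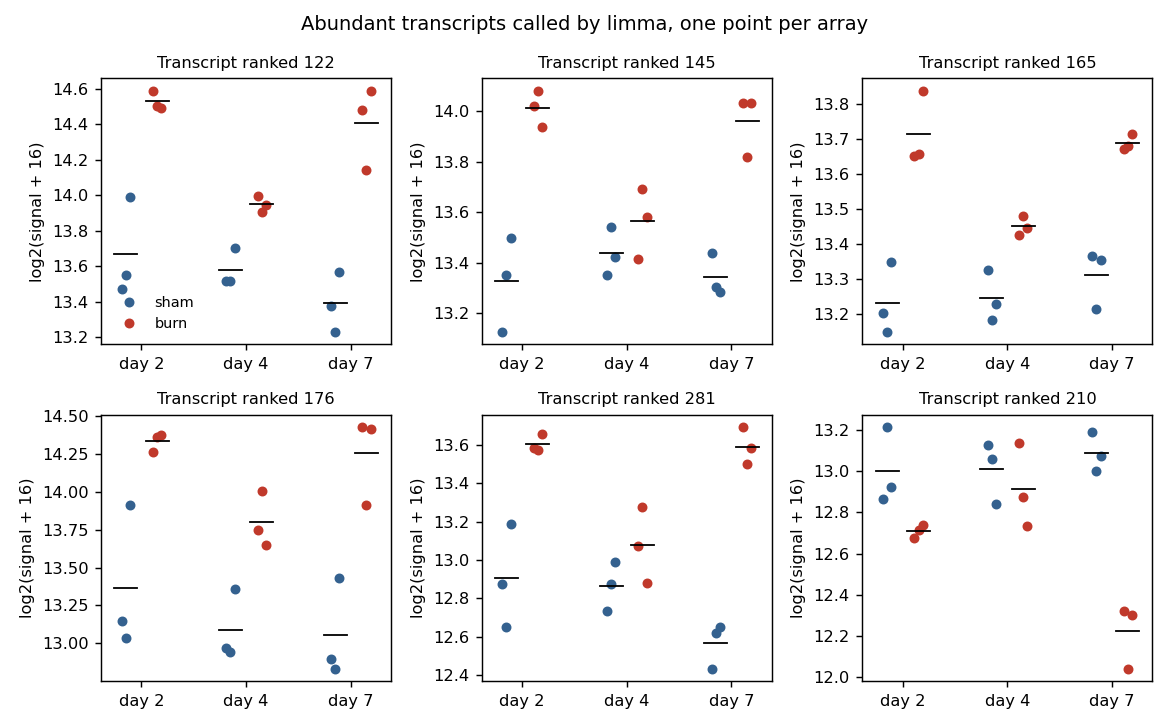
Level, log2(signal + 16) after quantile normalization, of the 6 called members on each array by day, with points for arrays and lines for the mean of 3. Ranks 122, 145, 165, 176 and 281 are higher in burn on each day and least so on day 4; rank 210 is lowest on burn arrays of day 7 (12.04 to 12.32).

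A ratio commonly used to gauge RNA quality was lower on average in burn on days 2 and 7. It rests on control rows, whose names were checked apart from the others. Hybridisation controls, added in rising amounts from bioB over bioC and bioD to cre, averaged 8.75, 10.26, 11.83 and 14.32 and stood in that order on 18 of 18 arrays. Other checks were less clear. In 9 pairs of rows named for the same control, mean levels correlated at 0.93 but differed by up to 2.39 log2 units (median 0.85). The 3 rows named for Actb stood at percentiles of 96.8 to 99.0, but no value shows directly that they hold Actb. The 3' row exceeded the 5' row on 18 of 18 arrays, but the order 3' over middle over 5' held on 0. The log2 ratio of the 3' over the 5' control row of Actb was 0.25 ± 0.13 on burn and 0.61 ± 0.28 on sham arrays on day 2, 0.81 ± 0.09 and 0.70 ± 0.24 on day 4, and 0.41 ± 0.04 and 1.15 ± 0.24 on day 7 (SD, n = 3 each). On day 2 the arms overlapped, with burn replicate 2 at 0.35 and sham replicate 3 at 0.34. On day 7 they were apart. With this ratio as a covariate limma called 0 members on day 7 and 0 on the mean, with 20 and 29 members at an unadjusted p under 0.05 (6.67% and 9.67%, against 5.90% and 6.36% of all rows). The rise on the mean went from 0.96 to 0.89 ± 0.20 for rank 176, from 0.75 to 0.67 ± 0.13 for rank 122, from 0.65 to 0.55 ± 0.12 for rank 281, from 0.48 to 0.40 ± 0.10 for rank 145 and from 0.36 to 0.40 ± 0.09 for rank 165 (limma adjusted p between 0.450 and 0.552). The fall of rank 210 on day 7 went from -0.87 to -0.79 ± 0.24 (limma adjusted p = 0.675). On day 7 alone the rises of ranks 122 and 281 went from 1.02 to 0.84 ± 0.26 and from 1.03 to 0.81 ± 0.24 (limma adjusted p = 0.684 and 0.675). Every size but that of rank 165 was smaller with the covariate and every standard error larger, and what part RNA quality has in these results was not tested.

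Scaling mattered for the calls of day 7 and of the mean of the days. With median scaling only rank 210 was called on day 7, and ranks 122, 176 and 281 on the mean. Ranks 145 and 165 then did not pass on the mean (limma adjusted p = 0.0518 and 0.0832). Fitted on the 6 arrays of day 7 alone, limma called 0 members (smallest adjusted p 0.144). Leaving out burn day 7 replicate 1 or 3 or sham day 7 replicate 1 also ended the day 7 calls of ranks 122 and 281 and left 0 members.

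Other members stood out on single days without passing the test. On day 2 the largest rise without overlap was that of rank 203, at 1.17 ± 0.26 (limma adjusted p = 0.165), from sham readings of 12.44, 12.64 and 13.23 to burn readings of 14.11, 14.10 and 13.62. On day 4 it was also the largest, at 0.79 ± 0.26, with 12.48, 12.36 and 13.05 in sham and 13.84, 13.06 and 13.35 in burn (limma adjusted p = 0.371). On day 7 its sham arrays stood at 13.57, 14.17 and 13.65 and its burn arrays at 13.75, 13.51 and 13.80, and the arms overlapped. Its burn means were 13.94, 13.42 and 13.69 on days 2, 4 and 7 and its sham means 12.77, 12.63 and 13.79.

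Rank 299 was higher in burn on day 2 by 0.92 ± 0.36 (limma adjusted p = 0.463), with readings of 12.84, 13.32 and 13.50 against 12.37, 12.05 and 12.49. Its burn arrays of days 4 and 7 ranged from 11.73 to 13.28 and it was among the widest spread of the set. Rank 105 was apart on day 4, at 13.92, 13.65 and 13.74 in burn and 12.96, 12.82 and 13.54 in sham, a difference of 0.66 ± 0.18 (limma adjusted p = 0.271). On days 2 and 7 its arms differed by 0.04 and 0.08.

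The largest falls without overlap on day 2 were those of ranks 55, 280 and 126, at -0.49 ± 0.11, -0.44 ± 0.18 and -0.37 ± 0.13 (limma adjusted p = 0.176, 0.493 and 0.387). Rank 55 read 13.67, 13.49 and 13.59 in burn and 14.18, 14.10 and 13.96 in sham on that day, and on 9 of 9 burn arrays it was below that day's sham mean. On the mean of the days it stood at -0.34 ± 0.07, just outside the threshold (limma adjusted p = 0.0552). Rank 280 was lower on day 4 too, at -0.43 ± 0.18, and at 0.13 ± 0.18 on day 7.

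On day 4 the largest falls without overlap were in ranks 224, 153 and 296, at -0.79 ± 0.30, -0.72 ± 0.20 and -0.65 ± 0.25 (limma adjusted p = 0.441, 0.271 and 0.441). Rank 153 read 12.78, 12.76 and 12.62 in burn and 13.62, 13.63 and 13.06 in sham. Rank 296 was below the sham mean of its day on 9 of 9 burn arrays. On day 7, after rank 210, the largest falls without overlap were in ranks 247 and 133, at -0.56 ± 0.25 and -0.41 ± 0.16 (limma adjusted p = 0.481 and 0.394). With overlap allowed, rank 233 lay between ranks 210 and 247, at -0.78, and ranks 108 and 99 stood at -0.54 and -0.53.

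The counts of day 2 were also taken without burn day 2 replicate 1, where separation is easier, with only 2 burn arrays. Members within 1.25-fold of sham numbered 258, those beyond 1.5-fold 8, and those higher in burn 116. At an unadjusted p under 0.05 limma gave 35 members (11.7%, against 8.15% of all rows). Arrays were apart in 36 members higher and 67 lower, 34.3% of the 300 against 23.4% of all rows. The day 2 effect of rank 203 was then 1.09 ± 0.30, of rank 176 1.00 ± 0.27, of rank 299 1.11 ± 0.40, of rank 55 -0.54 ± 0.13, of rank 280 -0.53 ± 0.20 and of rank 126 -0.33 ± 0.14 (SE), again with none past the threshold of limma.

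Whether the burn effect of a member differed between the 3 days was asked with an F test in limma. It called 0 members and 0% of rows, with a smallest adjusted p of 0.230 among the 300. At an unadjusted p under 0.05 there were 36 members (12.0%), against 9.46% of all rows. The smaller day 4 effects of the 5 called rises were therefore not shown to differ from days 2 and 7 (limma adjusted p of the F test from 0.286 in rank 281 to 0.802 in rank 176). The widest range of effects over the days was that of rank 224, at 0.47 ± 0.30, -0.79 ± 0.30 and 0.93 ± 0.30 on days 2, 4 and 7 (limma adjusted p of the F test 0.272). Its sham arrays read 12.41, 12.76 and 13.38 on day 2, 13.77, 13.69 and 13.21 on day 4 and 12.52, 13.16 and 11.90 on day 7, and its burn arrays 13.10, 13.43 and 13.43, then 13.16, 12.49 and 12.66, then 13.56, 13.56 and 13.26. Ranks 203 and 299 came next, with effects spanning 1.28 and 1.30 log2 units. The steadiest were ranks 37, 17 and 13, whose 3 effects lay within 0.0057, 0.011 and 0.014 of each other and whose mean effects were -0.02 ± 0.06, -0.01 ± 0.06 and -0.04 ± 0.05.

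Across the 300, burn effects on day 2 and day 7 went together more than other pairs of days. Each day was set against its own sham arrays. The Pearson correlation was 0.51 (Spearman 0.41) for days 2 and 7, 0.25 (0.17) for days 2 and 4 and 0.13 (0.066) for days 4 and 7, with n = 300 transcripts, which share the arrays of a day and are not independent replicates. For all 15866 rows without controls the same pairs gave 0.19, 0.014 and -0.048. Without the 6 called members the correlation of days 2 and 7 was 0.37 (n = 294), and 197 of the 300 had the same sign on both days (65.7%, against 54.7% of the 15866 rows). Leaving out single arrays moved it between 0.41 and 0.56, and both other scalings gave 0.54. On average the ratio of Actb was lower in burn on these same 2 days. With it as a covariate the correlation was 0.48 for the 300 and 0.42 for the 15866 rows. That fit has 1 slope per row, which shifts the effects of days 2 and 7 in the same direction. Errors in the slope are thus shared by both effects. What they do to the correlation was not tested, and the smaller gap between the 300 and all rows cannot be interpreted. Without the covariate the correlation was 0.61 among ranks 1 to 100 and 0.38 among ranks 201 to 300. With it the values were 0.64 and 0.26. Whether the 300 differ from other rows in this was not tested.

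**Figure D5:**
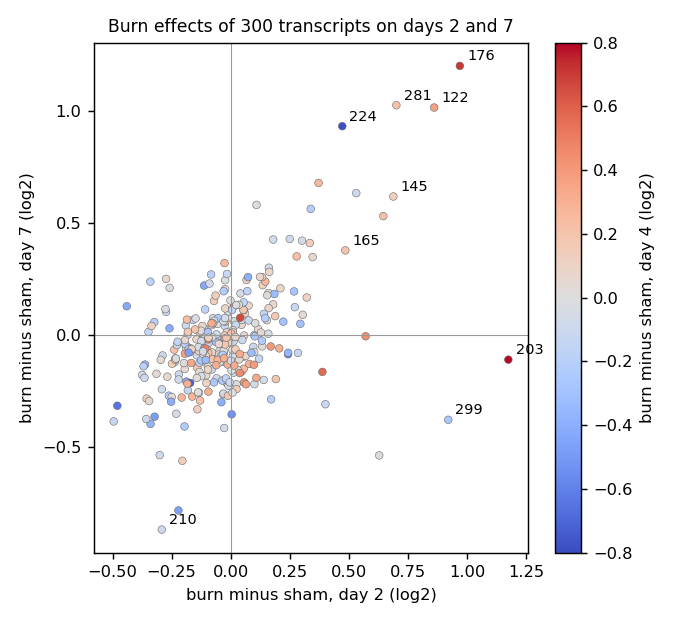
Burn effect (burn minus sham, log2) of each of the 300 transcripts on day 2 against day 7, coloured by its effect on day 4, with described ranks labelled. The cloud rises from lower left to upper right (Pearson 0.51); ranks 176, 122, 281 and 145 lie far up on both days, rank 203 is high on day 2 (1.17) and not on day 7 (-0.11), and rank 224 has opposite colour on day 4 (-0.79).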

How the data were processed

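The values are intensity on a linear scale, 1 per probe set, as deposited. The software that made them is not given in the sources read for this work. The mean of the central values of each of the 18 columns, with 2% trimmed from either end, was 500.2, so the authors' intensity had been scaled array by array. Values were taken to log2(signal + 16), so that log2 differences understate changes of dim rows but hardly those of the 300. The 18 arrays were quantile-normalized and fitted on 15923 rows with limma 3.58.1 (R 4.3.3; lmFit, eBayes, 1 mean per group, 12 residual degrees of freedom). The number of arrays limits the precision. On simulated arrays of 15923 rows the fit recovered 53% of 2-fold changes on day 7 and, averaged over days, 82%. There 100 rows were changed by 1 log2 unit and 100 by 2, drawn from all rows, with no normalization step. All rows had a median residual SD of 0.27 and the 300 one of 0.12, so these rates are not those of the 300. The members, tests and described ranks were chosen with earlier results of these data known. Described singly were the 5 brightest, called members, the 3 largest rises and falls without overlap per day, the 3 widest and 3 steadiest effects, and ranks at the cut. Lists of marker genes were used only to check names.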

Additional observations from a re-analysis of the deposited data

Results flagged for a closer look

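In the results below the burn arrays of 1 day all lay above the sham mean of that day while those of another day all lay below theirs. None of these differences between days was tested as such beyond the F tests of single rows given above, in which no member passed. The share of deposited signal held by the 300 was 1.50 percentage points higher in burn on day 2 and -0.58 and -0.62 on days 4 and 7. The transcript ranked 5 differed from sham by -0.079, 0.11 and -0.076 log2 units on days 2, 4 and 7. Rank 224 stood at 0.47, -0.79 and 0.93 on the 3 days. Rank 247 stood at 0.14 on day 4 and -0.56 on day 7. For rank 280 the values were -0.44, -0.43 and 0.13, and for rank 300 -0.34, -0.17 and 0.24. Of all 300, 73 showed such a turn between days (24.3%, against 21.0% of all rows).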

How the results depend on the processing

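Limits are the 3 arrays per group, the unsettled row names, and bright rows whose normalized level is set by rank. Of the alternatives, the quantile normalization over 24 arrays was added last, with the files at hand, while all other choices were made with earlier results known. Counts are members called on days 2, 4 and 7, on the mean and for an effect that differs between days, against 0, 0, 3, 5 and 0. On day 2, omitting the dimmest 33.3% of rows gave 2 and intensity trend with robust variance 7, against 11 of 10615 and 32 of 15923 rows. On day 7 there were 1 with median scaling, 6 with a pseudocount of 64, 9 with trend and robust variance, 5 with array weights, and 0 with the Actb ratio covariate, with the day fitted alone and for the 100 brightest rows. On the mean there were 3 with median scaling, 8 with a pseudocount of 64, 8 without the dimmest rows, 20 with trend and robust variance, 8 with array weights, 0 with the ratio covariate, 0 of the 100 brightest rows and 9 of the 1000 brightest. Over all rows, against 25, median scaling called 17 on the mean, a pseudocount of 64 41, the set without the dimmest rows 53 (of 10615), trend and robust variance 89, array weights 37 and the covariate 0. On day 7, against 8, these gave 5, 27, 4, 60, 37 and 0. Leaving out single arrays gave 0 to 4 on day 2, 0 to 4 on day 7 and 4 to 7 on the mean. The 4 on either day came without sham day 2 replicate 3, where 20 and 16 of all 15923 rows were called. Of the other omissions, counts over all rows are given here only for burn day 2 replicate 1. It was not settled whether equal replicate numbers mark pairs. Burn and sham arrays of equal number correlated at -0.034 to 0.17 about their group means (9 pairs, 2 over 0.1). Of the sham arrays, 5 of 9 were closest to the burn array of that number. With 3 arrays per group these values cannot exclude pairing. The replicate block within days gave 0 calls for day 7 and 2 for the mean (ranks 122 and 176), against 1 and 11 over all rows. The replicate block over days gave 2 and 5, against 5 and 32 over all rows. On day 4 and for a differing effect every setting run gave 0 members. Over all rows, day 4 had 3 calls with values as deposited and 2 of 10615 without the dimmest rows. The fit with an intensity trend called 6 rows there, and weighting the arrays 1. For a differing effect the trend fit called 10 rows, weighting the arrays 8 and the replicate block within days 1. The main fit called 0 rows in either.

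The difference in share was -0.18 points on day 2 with quantile-normalized signal, and for the 1000 brightest rows 0.39 on day 4 and -1.66 on day 7. On either scale the choice of rows by sham arrays favours a higher sham share. Median effects moved with the setting, though some of the values that follow lie within the ranges seen with an array left out. On day 2 (-0.030) they were 0.063 as deposited, 0.096 with median scaling, -0.040 with the ratio covariate, -0.046 without burn day 2 replicate 1, -0.024 with rows chosen by burn arrays and -0.024 for 1000 rows. On day 4 (-0.0041) they were -0.021 as deposited, 0.035 with median scaling, 0.0072 chosen by burn arrays, 0.0051 by all arrays, 0.0069 by the other days, -0.020 for 100 rows and 0.0072 for 1000. On day 7 (-0.049) they were -0.090 as deposited, -0.21 with median scaling, -0.028 with the covariate, -0.026 by burn arrays, -0.033 by all arrays, -0.040 by the other days, -0.055 for 100 rows and -0.028 for 1000. On the mean (-0.022) they were -0.0045 as deposited, -0.016 with median scaling, -0.0098 by burn arrays, -0.013 by all arrays, -0.034 for 100 rows and -0.011 for 1000. With an array left out they ran from -0.046 to -0.029 on day 2, -0.054 to -0.028 on day 7 and -0.030 to -0.013 on the mean. The causes were not tested. For 38 effects of single members, other settings gave 479 values, of which 23 lost the call, 5 gained it and 4, all uncalled, changed sign. Omission of an array gave 684, of which 20 lost it, 2 gained it and 9, all uncalled, changed sign. No called effect reversed in either.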

Other observations

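A few abundant transcripts varied widely between arrays of the same group. The widest residual SD among the 300 was 0.53 log2 units, for rank 233, whose arrays ran from 10.77 to 13.59, and the next was 0.49 for rank 246, which ran from 12.23 to 13.92. Their burn effects on the mean of the days were -0.49 ± 0.23 and 0.47 ± 0.21 (SE), and neither passed the test (limma adjusted p = 0.484 and 0.480). The narrowest were ranks 3 and 1, with residual SD of 0.041 and 0.043. All 4 were picked with their values in view. Of the control rows, 9 of 57 would have been bright enough to belong to the set.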
